A study of Mus musculus with 10 samples.

Results

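Voltage-gated sodium channels, voltage-gated calcium channels and HCN channels set the excitability of neurons, and their subunit genes were examined in mouse cerebral cortex after traumatic brain injury (TBI). The members are the genes whose symbols belong to the Scn, Cacna1a to Cacna1i, Cacna2d, Cacnb, Cacng and Hcn families, 43 of the 55401 genes in the deposited table. Of these, 23 encode pore-forming subunits and 20 were counted as auxiliary subunits, among them 8 Cacng genes placed there by their name. Total RNA was sequenced from 5 mice with TBI and 5 control mice, 1 library per mouse, so n = 5 in each group and ± is the SD of those libraries. The sample titles call the controls Sham, whereas the design text describes them as naïve, so it is not settled whether they had surgery. The injury model, the time after injury, the strain and the age are not given in the sources used here.

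A voltage-gated sodium channel is built around an alpha subunit that forms the pore, and its current drives the rising phase of the action potential. Beta subunits, encoded by the Scn genes whose symbols end in b, bind the alpha subunit, tune its gating and act as adhesion molecules. Voltage-gated calcium channels likewise have a pore-forming alpha1 subunit, which decides whether the current is of the L, P/Q, N, R or T type. In channels of the L, P/Q, N and R types, an intracellular beta subunit and an alpha2delta subunit help to bring the channel to the membrane. Most Cacng genes of the brain encode TARPs, proteins that traffic and modulate AMPA-type glutamate receptors, despite their naming after a calcium channel subunit. HCN channels open on hyperpolarization, carry a mixed sodium and potassium current and influence resting potential and dendritic integration.

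Depth was 47.6 to 71.3 megacounts per library, and about 4 estimated counts stand for 1 fragment. A gene was tested if 5 or more of the 10 libraries reached 0.5 FPKM (fragments per kilobase of exon and per megafragment). This left 16316 genes, and 659 of them passed at a Benjamini-Hochberg adjusted p under 0.05 in edgeR, which is 4.04%. Cell type markers had 16 called genes of 90 tested. Microglial and macrophage markers were higher in TBI in 9 of 10, and the astrocyte filament gene Gfap was at 260 ± 67.4 FPKM in TBI and 38.3 ± 6.0 FPKM in Sham. Csf1r, a receptor of microglia, was at 31.4 ± 4.40 FPKM in TBI and 13.8 ± 0.731 FPKM in Sham. The other called markers were the astrocyte gene Aqp4, the neurofilament gene Nefl, which was lower in TBI, the endothelial gene Cdh5, the collagen genes Col1a1 and Col1a2, and the ependymal gene Foxj1. Markers of cortical tissue were present, with the neuronal splicing factor Rbfox3 at 39.0 ± 2.70 FPKM in TBI and 41.0 ± 4.57 FPKM in Sham, and the vesicular glutamate transporter Slc17a7 at 167 ± 32.2 FPKM in TBI and 176 ± 36.3 FPKM in Sham. The GABA-synthesizing enzyme Gad1 was at 39.0 ± 4.19 FPKM in TBI and 39.2 ± 4.0 FPKM in Sham, and the myelin gene Mbp at 80.4 ± 17.3 FPKM in TBI and 81.9 ± 14.1 FPKM in Sham. TBI replicate 1 stood apart in Ttr, the transthyretin gene of the choroid plexus, with 853 FPKM against at most 27.6 FPKM in any other library, and Sham replicate 4 had the lowest FPKM of the 10 libraries in 12 of 35 tested members, 34.3%, and in 16.5% of all tested genes.

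Of the 43 channel subunit genes, 35 passed the expression filter and 0 were called in either direction by edgeR, against 4.04% of all tested genes. The count was also 0 without TBI replicate 1 and without Sham replicate 4. An unadjusted p under 0.05 was found for 5 of 35 members, 14.3%, and for 15.0% of all tested genes, so the members' share was near the background. They included Cacnb3, Cacng7 and Scn2a with lower estimates in TBI and Scn7a with a higher one. DESeq2, run as an alternative, also called 0 members, against 1066 of all tested genes. It had 6 members at an unadjusted p under 0.05, for which the share over all genes is not given. For 0 of the 35 genes did the TBI and Sham values fail to overlap, while 6.33% of all tested genes had groups that did not overlap. The estimated log2 change was below 0 for 28 members, 80.0%, and for 52.7% of all tested genes, with a median of -0.13 in the members and -0.01 in all tested genes. General neuronal markers had a median of -0.10, excitatory neuron markers of -0.12 and inhibitory neuron markers of -0.01. In whole tissue, fewer cells of a type and less RNA per cell cannot be told apart.

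**Figure D1:**
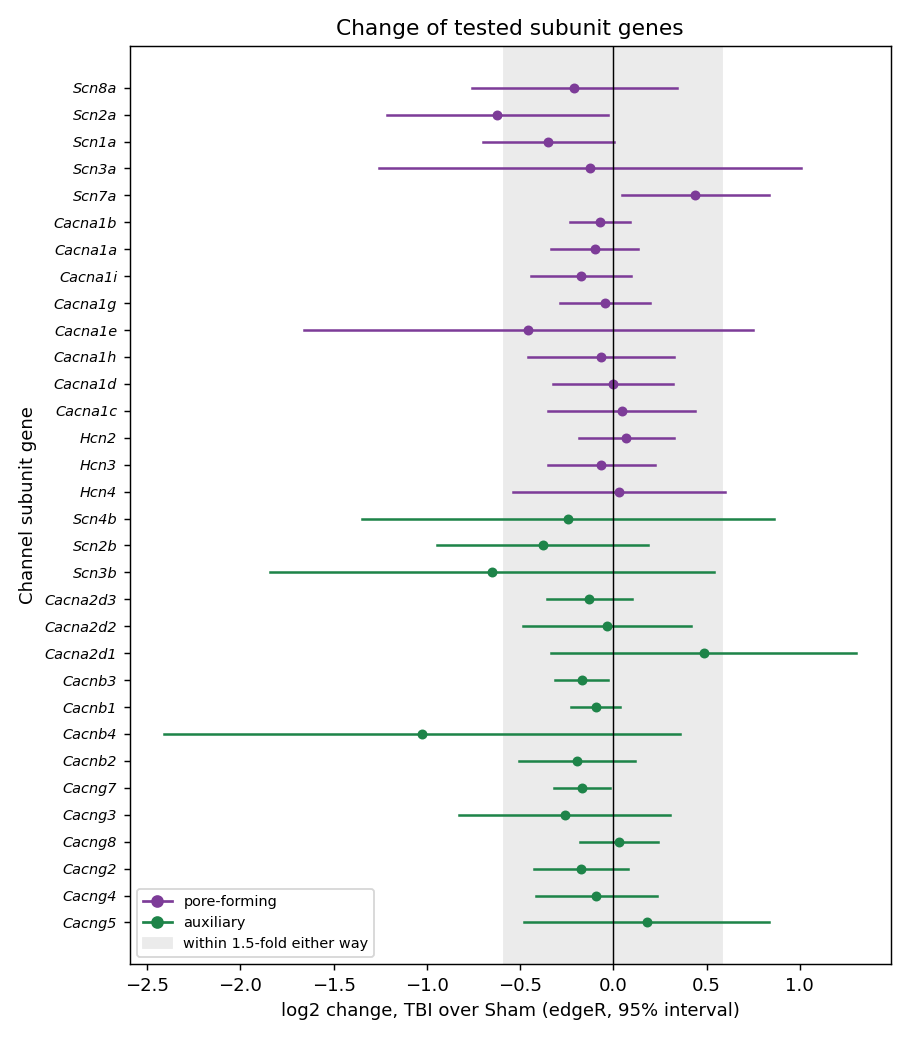
Log2 change of tested subunit genes, TBI over Sham, with its 95% interval from edgeR (n = 5 libraries per group), in purple for pore-forming and green for auxiliary subunits; the grey band spans a change of 1.5-fold either way. Most points lie left of 0, and intervals are widest for Cacnb4, Cacna1e and Scn3b.

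The width of the intervals differed widely between members. For 20 of 35 the 95% interval of the change lay within 1.5-fold either way, and for 27 of 35 within 2-fold. The 8 others included Scn2a, Scn3a, Scn3b, Scn4b, Cacna1e, Cacna2d1 and Cacnb4, so a change of 2-fold was not outside the interval in at least 1 direction. Among all tested genes 70.5% had an interval within 1.5-fold, against 57.1% of the members. The coefficient of variation over the 10 libraries had a median of 19.4% in the members and 13.6% in all tested genes.

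**Figure D2:**
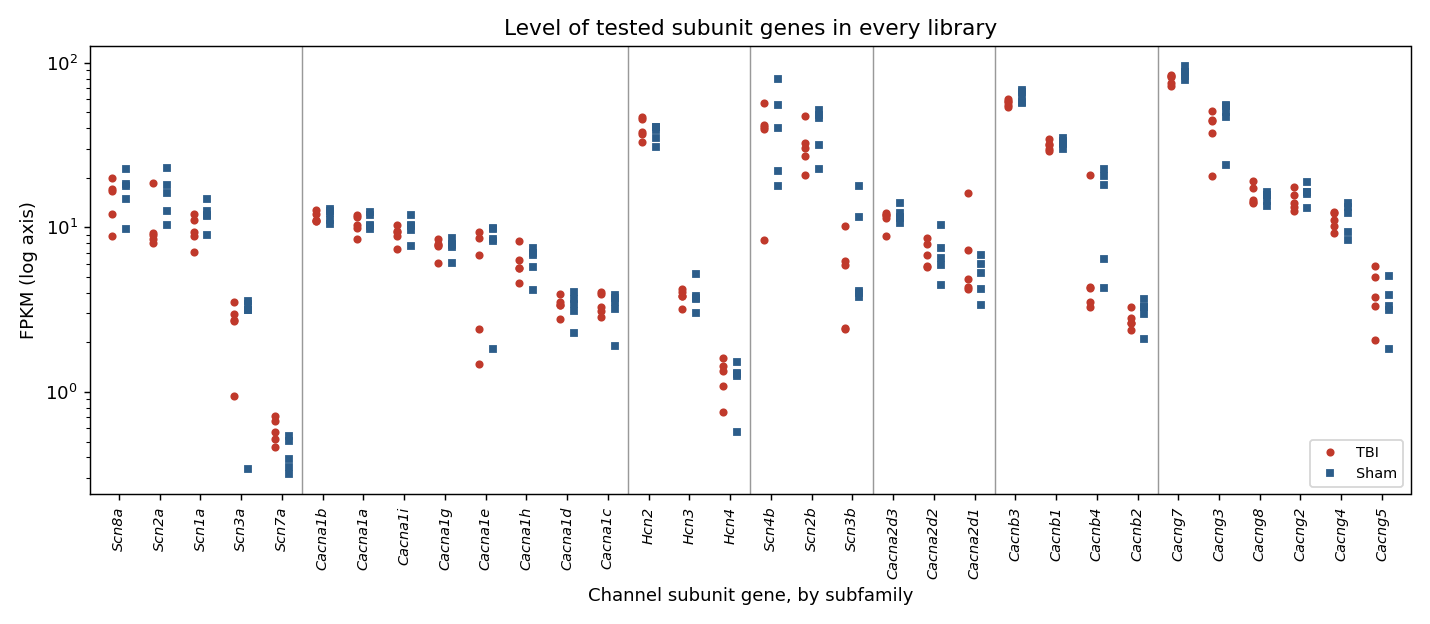
FPKM of tested subunit genes in every library on a log axis, with TBI libraries as red circles to the left of the blue squares of Sham libraries, and vertical lines between subfamilies. Cacng7 is the highest gene shown, at 72.4 to 95.1 FPKM, and the TBI and Sham values overlap for every gene shown.

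Pore-forming and auxiliary subunits were compared for their median change and summed level. The median log2 change was -0.09 over 18 tested pore-forming genes and -0.17 over 17 tested auxiliary genes, with 14 estimates below 0 in each set and 0 genes called in either. The order of these medians rests on Sham replicate 4, without which they were -0.15 for pore-forming and -0.14 for auxiliary genes. Summed over the family, auxiliary subunits reached 558 ± 22.3 FPKM in TBI and 618 ± 51.6 FPKM in Sham. Pore-forming subunits summed to 145 ± 14.8 FPKM in TBI and 155 ± 13.0 FPKM in Sham. The ratio of auxiliary to pore-forming FPKM was 3.87 ± 0.289 in TBI and 4.002 ± 0.466 in Sham, and the single libraries lay at 3.41 to 4.16 in TBI and at 3.67 to 4.8 in Sham. The groups overlapped between 3.67 and 4.16. The auxiliary set includes the Cacng genes, most of which encode TARPs, so this ratio is not one of channel subunits alone. The Scn beta genes summed to 268 ± 25.9 FPKM in TBI and 302 ± 48.3 FPKM in Sham, and the Cacng genes to 165 ± 11.4 FPKM in TBI and 179 ± 12.6 FPKM in Sham. Hcn and Cacna2d genes were the subfamilies with the higher mean in TBI. Their means were 48.1 ± 5.47 and 25.9 ± 3.42 FPKM in TBI against 45.6 ± 4.60 and 24.3 ± 3.19 FPKM in Sham. The Cacna2d sum was 31.1 FPKM in TBI replicate 2 and 22.8 to 27.3 FPKM in the other TBI libraries. The log2 change was below 0 for 2 of the 3 tested Cacna2d genes. Scn alpha, Cacna1 and Cacnb genes had lower means in TBI, at 39.3 ± 8.96, 57.4 ± 4.23 and 98.5 ± 7.84 FPKM against 48.9 ± 7.81, 60.8 ± 6.15 and 113 ± 13.1 FPKM in Sham. Since the members were chosen with earlier results known, no p is given for these sums.

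**Figure D3:**
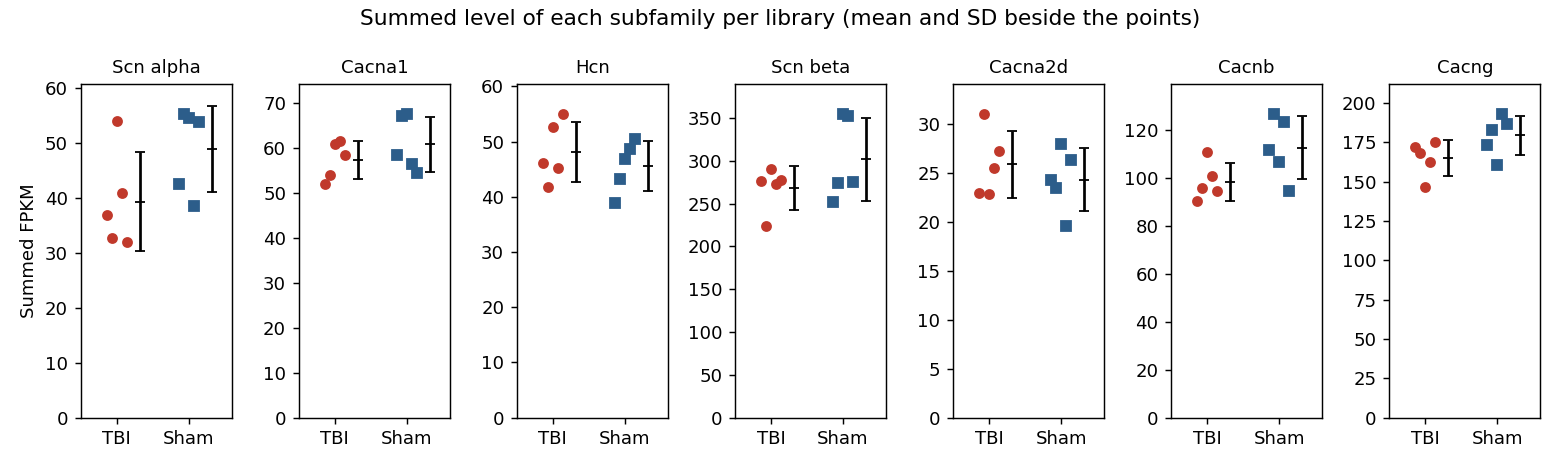
Summed FPKM of each subfamily per library, TBI libraries as red circles to the left of Sham libraries as blue squares, with the mean and SD of 5 libraries beside them and axes that start at 0. The groups overlap in all 7 subfamilies, and Scn beta and Cacng genes have the highest sums.

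Scn8a, Scn2a and Scn1a, which encode the alpha subunits Nav1.6, Nav1.2 and Nav1.1 of central neurons, made up most of the summed level of sodium channel pores. Scn8a, found at axon initial segments and nodes, was the highest, at 16.5, 12.1, 20.02, 16.99 and 8.81 FPKM in TBI replicates 1 to 5 and 17.9, 14.9, 22.7, 9.77 and 18.2 FPKM in Sham replicates 1 to 5. Both groups spanned nearly the same range, and the estimate was a log2 change of -0.21 with a 95% interval of -0.76 to 0.34. Its share of the summed alpha subunit FPKM was 37.6 ± 6.48% in TBI and 34.1 ± 7.92% in Sham.

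Scn2a (ENSMUSG00000075318, mm10 chromosome 2, 65620771 to 65767447), the alpha subunit of excitatory neurons' proximal axons and of their dendrites, was the pore-forming gene with the lowest estimate. It was at 9.04, 8.53, 18.5, 9.21 and 7.98 FPKM in TBI replicates 1 to 5, against 10.4, 22.9, 12.5, 16.1 and 18.2 FPKM in Sham replicates 1 to 5. All TBI libraries but replicate 3 lay below every Sham library, and TBI replicate 3 was above 4 of the 5 Sham libraries. The log2 change was -0.62 (SE 0.27, 95% interval -1.22 to -0.03, edgeR adjusted p = 0.303), which did not pass. Without TBI replicate 3 it was -0.92 with an edgeR adjusted p of 0.0361. Among the 18 alternatives run, no other gave a call for any tested member.

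Scn1a, the alpha subunit on which fast-spiking inhibitory neurons depend, had TBI values from 7.11 to 12 FPKM and Sham values from 9.01 to 14.8 FPKM. The lowest library was TBI replicate 2 and the highest Sham replicate 3, and the log2 change was -0.35 (SE 0.16, edgeR adjusted p = 0.341). Scn3a, an alpha subunit most abundant before birth, was at 2.57 ± 0.964 FPKM in TBI and 2.73 ± 1.35 FPKM in Sham.

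Scn7a (ENSMUSG00000034810, chromosome 2, 66673425 to 66784914) encodes Nax, an atypical channel that senses extracellular sodium and is found in glia. It was at 0.574, 0.663, 0.516, 0.716 and 0.462 FPKM in TBI replicates 1 to 5, against 0.390, 0.538, 0.503, 0.318 and 0.351 FPKM in Sham replicates 1 to 5. TBI libraries were mostly the higher ones, but TBI replicates 3 and 5 lay below Sham replicate 2. The log2 change was 0.44 (SE 0.18, 95% interval 0.04 to 0.84, edgeR adjusted p = 0.273), the largest positive estimate among pore-forming genes, and it did not pass. Astrocyte markers had 2 of 10 members called, both higher in TBI, with a summed level of 702 to 966 FPKM in TBI and 472 to 541 FPKM in Sham, and their part in the Scn7a values was not tested.

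Among beta subunits, Scn2b, which is linked to the alpha subunit by a disulfide bond, was at 31.5 ± 9.81 FPKM in TBI and 39.8 ± 12.3 FPKM in Sham. Its values ran from 20.7 FPKM in TBI replicate 3 to 51.4 FPKM in Sham replicate 3, so the spread within each group was larger than the difference of their means. Scn3b was at 10.1, 5.90, 2.46, 6.20 and 2.40 FPKM in TBI replicates 1 to 5 and 17.8, 4.01, 11.6, 3.77 and 4.12 FPKM in Sham replicates 1 to 5. High and low libraries occurred in both groups, and its log2 change of -0.65 had a 95% interval from -1.84 to 0.54.

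Scn4b, whose product is involved in resurgent sodium current, was at 40.7, 8.43, 41.8, 57.1 and 39.6 FPKM in TBI replicates 1 to 5 and 40.1, 17.9, 80.1, 22.0 and 55.3 FPKM in Sham replicates 1 to 5. The low libraries were TBI replicate 2, Sham replicate 2 and Sham replicate 4. Scn4b is known for its high level in the striatum, and 10 genes of striatal projection neurons, a list chosen after these values were seen, were set beside it. Their summed level was 177 FPKM in TBI replicate 2, 193 FPKM in Sham replicate 2 and 168 FPKM in Sham replicate 4, against 322 to 696 FPKM in the other 7 libraries. The same 3 libraries were thus lowest in Scn4b and in the summed striatal genes. Of the 10 listed genes, Pde10a and Tac1 departed from this order and the others followed it. Pde10a was at 8.37 FPKM in Sham replicate 4, above TBI replicates 3 and 5 and Sham replicates 1 and 5, at 5.21 to 6.93 FPKM. Tac1 was at 5.50 FPKM in Sham replicate 4 and 5.20 FPKM in TBI replicate 3. Of the 10 striatal genes, 10 were tested and 0 were called between TBI and Sham, with a median log2 change of 0.04. The striatal genes Penk and Ppp1r1b, encoding proenkephalin and the phosphoprotein DARPP-32, were at 174 ± 91.8 and 110 ± 40.2 FPKM in TBI and at 164 ± 80.2 and 100 ± 58.8 FPKM in Sham, in libraries labelled as cerebral cortex. What part striatal tissue has in the Scn4b values was not tested.

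**Figure D4:**
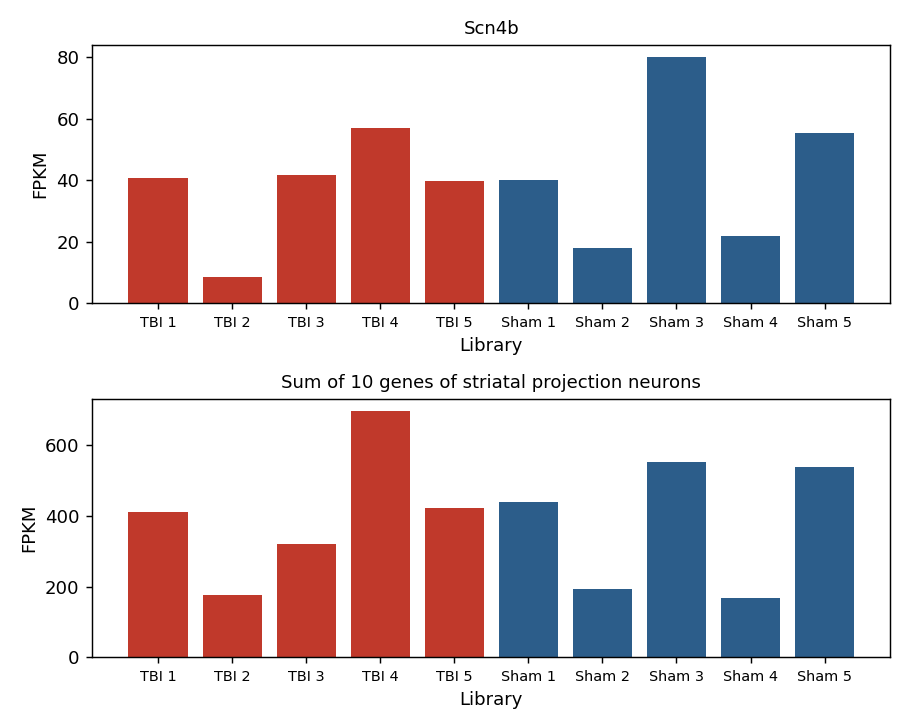
FPKM of Scn4b (top) and summed FPKM of 10 genes of striatal projection neurons (bottom) in each library, TBI in red and Sham in blue, with axes from 0. TBI replicate 2, Sham replicate 2 and Sham replicate 4 are the 3 lowest libraries in both panels.

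Scn2b and Scn4b lie side by side on chromosome 9, in the same orientation and 8.33 kb apart, and had similar levels averaged over all libraries, 35.7 and 40.3 FPKM. Their start regions are shown because these neighbours differ in sequence: the 300 base windows from RefSeq (build GRCm38.p6, plus strand, 250 bases before to 50 after the annotated start) hold 2 CG dinucleotides for Scn2b (chr9:45117626-45117925) and 26 for Scn4b (chr9:45138374-45138673). CG pairs are in capitals.
Scn2b: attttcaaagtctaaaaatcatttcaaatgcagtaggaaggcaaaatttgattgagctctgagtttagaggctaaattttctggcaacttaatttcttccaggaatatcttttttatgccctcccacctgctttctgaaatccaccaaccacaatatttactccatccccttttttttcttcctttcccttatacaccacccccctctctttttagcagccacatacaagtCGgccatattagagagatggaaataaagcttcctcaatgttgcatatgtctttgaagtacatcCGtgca
Scn4b: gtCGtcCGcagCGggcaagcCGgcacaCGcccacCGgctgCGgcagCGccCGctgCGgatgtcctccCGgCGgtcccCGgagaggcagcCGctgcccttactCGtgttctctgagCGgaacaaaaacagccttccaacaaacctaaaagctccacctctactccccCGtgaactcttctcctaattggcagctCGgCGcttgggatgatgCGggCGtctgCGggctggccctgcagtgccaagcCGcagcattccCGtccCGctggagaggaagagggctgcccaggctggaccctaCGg
Windows were found for 31 of the 43 members, 42 windows in all. At least 20 CG pairs, read on 1 strand since the motif is its own reverse complement, were held by 17 of 42 member windows, 40.5%, and by 26.5% of the 32851 windows of all genes. Taking each gene's richest window, 16 of 25 tested members had at least 20 CG pairs and 0 of 6 members below the expression filter did, with 3 to 11 in these. The 6 had 1 window each, while some tested members had 2 or 3 to choose from. The same split is not given for all genes, so it is not read as a trait of the channel genes.

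Calcium channel pores were steadier than sodium channel pores. Cacna1b and Cacna1a, the N-type and P/Q-type channels that supply calcium for transmitter release, had the highest levels. Cacna1b was at 10.96, 12.1, 11.1, 12.8 and 10.9 FPKM in TBI replicates 1 to 5 and 12.2, 12.9, 12.6, 10.5 and 11.01 FPKM in Sham replicates 1 to 5. The groups covered nearly the same range, and the fitted fold of TBI over Sham was 0.952 with a 95% interval of 0.853 to 1.06. Cacna1a had a fold of 0.933 (95% interval 0.795 to 1.1), with 10.4 ± 1.39 FPKM in TBI and 10.9 ± 1.15 FPKM in Sham.

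The T-type genes Cacna1i, Cacna1g and Cacna1h, whose channels open near resting potential, were at 9.07 ± 1.09, 7.61 ± 0.936 and 6.12 ± 1.35 FPKM in TBI and at 9.95 ± 1.5, 7.64 ± 0.950 and 6.24 ± 1.34 FPKM in Sham. Together they held 39.8 ± 2.56% of the summed Cacna1 FPKM in TBI and 39.3 ± 3.997% in Sham. The L-type genes Cacna1c and Cacna1d, whose calcium entry signals to the nucleus, were lower, at 3.44 ± 0.529 and 3.40 ± 0.420 FPKM in TBI and at 3.24 ± 0.801 and 3.31 ± 0.679 FPKM in Sham. The L-type share was 12 ± 1.72% in TBI and 10.8 ± 1.33% in Sham, a gap smaller than the SD of either group. For 7 of the 8 tested Cacna1 genes the interval lay within 1.5-fold either way, the exception being Cacna1e. No such interval was found for the 6 tested Scn alpha genes.

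The alpha2delta genes, whose products include the binding sites of gabapentin, were led by Cacna2d3 at 11.4, 8.90, 11.8, 12.3 and 11.8 FPKM in TBI replicates 1 to 5 and 12.2, 10.6, 14.1, 11.4 and 11.5 FPKM in Sham replicates 1 to 5. TBI replicate 2 was the lowest library, and the log2 change of -0.13 had a 95% interval of -0.36 to 0.10. Cacna2d1, a gabapentin target, was at 4.32, 16.1, 4.85, 4.24 and 7.29 FPKM in TBI replicates 1 to 5 and 5.26, 6.75, 6.01, 3.36 and 4.21 FPKM in Sham replicates 1 to 5. TBI replicate 2 alone stood above 8 FPKM. The log2 change of 0.48 was the largest positive estimate of all members, did not pass (edgeR adjusted p = 0.624), and was -0.01 without that library. Cacna2d2, also a gabapentin target, averaged 6.98 ± 1.28 FPKM in TBI and 6.96 ± 2.21 FPKM in Sham.

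Calcium channel beta subunits were led by Cacnb3 (ENSMUSG00000003352, chromosome 15, 98630840 to 98644529), a neuronal beta subunit that chaperones the pore to the membrane. It was at 53.6, 57.7, 55.5, 60.2 and 58.7 FPKM in TBI replicates 1 to 5, against 57.6, 66.2, 63.3, 68.7 and 57.0 FPKM in Sham replicates 1 to 5. The 3 highest libraries were Sham libraries, and the ranges overlapped between 57.0 and 60.2 FPKM. The log2 change was -0.17 (SE 0.06, 95% interval -0.31 to -0.03, edgeR adjusted p = 0.230), so a decrease beyond 1.5-fold lay outside its interval. Cacnb1, the beta subunit of skeletal muscle that is also made in brain, had the lowest variation of all members, 5.99% over the 10 libraries, with 31.4 ± 2.02 FPKM in TBI and 32.6 ± 1.80 FPKM in Sham. Cacnb2, which partners L-type channels in heart, was at 2.74 ± 0.343 FPKM in TBI and 3.06 ± 0.592 FPKM in Sham.

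Cacnb4 (ENSMUSG00000017412, chromosome 2, 52428320 to 52676831), the beta subunit mutated in lethargic mice, had the most negative estimate of all members and the widest spread of the tested ones. It was at 4.35, 3.51, 20.7, 3.28 and 4.31 FPKM in TBI replicates 1 to 5, against 18.2, 22.7, 6.40, 20.5 and 4.29 FPKM in Sham replicates 1 to 5. The libraries fell on a low level of 3.28 to 6.40 FPKM, with 4 TBI and 2 Sham libraries, and a high level of 18.2 to 22.7 FPKM, with 1 TBI and 3 Sham libraries. The log2 change of -1.03 had a 95% interval of -2.41 to 0.36 and did not pass (edgeR adjusted p = 0.507). Without TBI replicate 3 it was -1.94 (edgeR adjusted p = 0.0628). An antisense gene, A430018G15Rik, shares 16.0% of the merged exon bases of Cacnb4 in GENCODE M21, and since strand-aware counting is not stated, its reads cannot be told apart there.

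Such 2-level patterns, defined as a gap of at least 2-fold that exceeds the spread within either level and leaves at least 2 libraries on each side, occurred in 3 of 35 members, 8.57%, and in 1.90% of all tested genes. Besides Cacnb4 these were Cacna1e, the R-type calcium channel, and Scn3a. Cacna1e was at 1.47, 2.43, 8.62, 9.37 and 6.80 FPKM in TBI replicates 1 to 5 and 9.96, 9.78, 8.45, 8.29 and 1.81 FPKM in Sham replicates 1 to 5. TBI replicates 1 and 2 and Sham replicate 5 were low. Scn3a was at 0.946, 2.96, 2.69, 3.51 and 2.73 FPKM in TBI replicates 1 to 5 and 3.57, 3.14, 3.14, 0.340 and 3.44 FPKM in Sham replicates 1 to 5, with TBI replicate 1 and Sham replicate 4 low. TBI replicate 1 was on the low level in all 3 genes, and the 3 low libraries of Cacna1e were also low in Cacnb4. Each level held libraries of both groups.

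**Figure D5:**
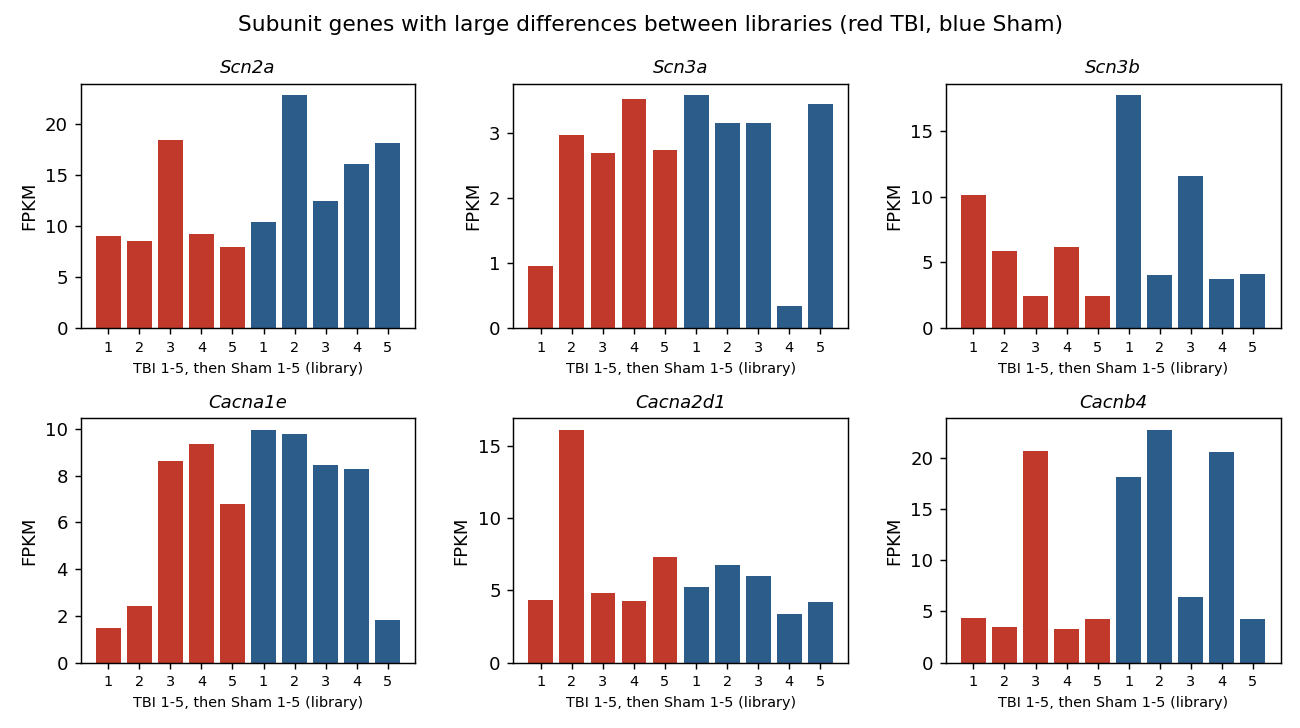
FPKM in each library for 6 subunit genes with large differences between libraries, TBI replicates 1 to 5 in red and then Sham replicates 1 to 5 in blue, with axes from 0. High and low libraries occur in both groups for Scn2a, Scn3a, Scn3b, Cacna1e and Cacnb4, while a single TBI library is high for Cacna2d1.

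The Cacng genes were led by Cacng7 (ENSMUSG00000069806, chromosome 7, 3332955 to 3368221), which encodes the TARP gamma-7. It was at 82.3, 72.4, 82.4, 74.9 and 83.6 FPKM in TBI replicates 1 to 5, against 78.7, 82.6, 87.7, 95.1 and 88.3 FPKM in Sham replicates 1 to 5. The 3 highest libraries were Sham libraries and the 2 lowest TBI libraries, with overlap between 78.7 and 83.6 FPKM. The log2 change was -0.17 (SE 0.07, 95% interval -0.32 to -0.02, edgeR adjusted p = 0.275). Cacng3, a TARP of forebrain neurons, was at 44.4, 50.6, 20.5, 37.4 and 44.7 FPKM in TBI replicates 1 to 5 and 50.02, 54.5, 24.0, 55.1 and 46.9 FPKM in Sham replicates 1 to 5. Replicate 3 was the lowest library in each group. Cacng2, which encodes stargazin, was at 14.6 ± 2.03 FPKM in TBI and 16.1 ± 2.07 FPKM in Sham, and the hippocampal and cortical TARP gene Cacng8 at 15.9 ± 2.25 FPKM in TBI and 15.1 ± 1.17 FPKM in Sham. The TARP genes Cacng4 and Cacng5 were at 11.03 ± 1.36 and 4.01 ± 1.47 FPKM in TBI and at 11.4 ± 2.44 and 3.45 ± 1.18 FPKM in Sham.

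HCN channels were represented mainly by Hcn2, which held 83.0 ± 2.81% of the summed Hcn FPKM in TBI and 81.4 ± 2.10% in Sham. Hcn2 was at 38.0, 33.2, 45.4, 36.9 and 46.9 FPKM in TBI replicates 1 to 5 and 30.7, 34.6, 39.0, 40.8 and 40.7 FPKM in Sham replicates 1 to 5. The groups overlapped between 33.2 and 40.8 FPKM, with a fitted fold of 1.05 and a 95% interval of 0.880 to 1.25. Hcn3 was at 3.81 ± 0.391 FPKM in TBI and 3.88 ± 0.802 FPKM in Sham, although 17.1% of its merged exon bases overlap the opposite-strand gene Pklr. Hcn4, the pacemaker channel of the heart, was at 1.25 ± 0.333 FPKM in TBI and 1.19 ± 0.358 FPKM in Sham.

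The 8 members below the expression filter were Scn4a, Scn9a, Scn10a, Scn11a, Cacna1f, Cacna2d4, Cacng1 and Cacng6. These include Scn4a and Cacng1 of skeletal muscle, Cacna1f of the retina, and Scn9a, Scn10a and Scn11a of sensory neurons. Scn4a had 8 estimated counts over the TBI libraries and 12 over the Sham libraries, which is about 2 and 3 fragments, so no fold is given. Scn9a, Cacna2d4 and Cacng6, the nearest to the filter, averaged 0.223, 0.337 and 0.448 FPKM in TBI and 0.264, 0.329 and 0.481 FPKM in Sham. Scn7a, just above it, reached 0.5 FPKM in 4 TBI and 2 Sham libraries. With no filter applied, edgeR called 0 of the 43 members, against 613 of all genes with any count, whose number is not given. In that fit 7 members had an unadjusted p under 0.05, and the share over all genes is not given. Cacna1f had the largest fitted difference of the 8, with 56 counts in TBI and 165 in Sham, or about 14 and 41.3 fragments (edgeR adjusted p = 0.324).

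Several members are tandem neighbours with very different levels. Scn3a, Scn2a, Scn1a, Scn9a and Scn7a lie on chromosome 2, where the gene Scn9a at 0.244 FPKM, averaged over the 10 libraries, is 39.3 kb from Scn1a at 10.8 FPKM. Scn10a and Scn11a on chromosome 9, both below the filter, averaged 0.0605 and 0.0365 FPKM. On chromosome 7, Cacng7, Cacng8 and Cacng6 averaged 82.8, 15.5 and 0.465 FPKM within neighbouring positions 22.5 and 8.55 kb apart. On chromosome 11, Cacng1 at 0.190 FPKM is 15.8 kb from Cacng4 at 11.2 FPKM.

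Genes of proteins that anchor or regulate these channels were examined as 4 lists, with 33 of 34 genes tested. Of these 2 were called, both lower in TBI, which is 6.06% against the 4.04% of all tested genes. Rims1, an active zone protein that binds calcium channels and tethers them at release sites, was at 20.6, 22.0, 25.6, 22.1 and 24.8 FPKM in TBI replicates 1 to 5, against 27.5, 33.1, 32.3, 30.5 and 26.0 FPKM in Sham replicates 1 to 5. The groups did not overlap, and Rims1 fell by 0.41 on the log2 scale (SE 0.09, edgeR adjusted p = 0.0234). Its adjusted p ranged from 0.0147 to 0.0676 when 1 library was left out, and it passed in 5 of 10 such fits. It did not pass without TBI replicate 1, 2 or 4 or without Sham replicate 2 or 3. With a replicate block its adjusted p was 0.0593.

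Fgf12, a fibroblast growth factor homologous factor that binds sodium channel alpha subunits inside the cell, was at 18.8, 17.1, 18.0, 16.2 and 16.2 FPKM in TBI replicates 1 to 5, against 19.96, 20.6, 20.5, 18.5 and 19.4 FPKM in Sham replicates 1 to 5. TBI replicate 1 was above Sham replicate 4, so the groups overlapped by that pair of libraries. Fgf12 fell by 0.24 on the log2 scale (SE 0.06, edgeR adjusted p = 0.0498), and passed in 2 of 10 fits with a library left out, where the adjusted p ran from 0.0356 to 0.135. The 2 were the fits without TBI replicate 1 and without Sham replicate 4. Of the settings that kept all libraries, DESeq2 also called Fgf12 and the 7 others did not, with adjusted p-values of up to 0.0931. The sodium leak channel subunit gene Unc80 came nearest in its list, at 13.3 ± 0.429 FPKM in TBI and 15.6 ± 1.71 FPKM in Sham (edgeR adjusted p = 0.0896), and passed in DESeq2 and without Sham replicate 4. Among HCN partners Pex5l, which encodes the trafficking subunit TRIP8b, came nearest, at 11.8 ± 1.80 FPKM in TBI and 9.94 ± 0.922 FPKM in Sham (edgeR adjusted p = 0.381). The median log2 change was -0.04 over the sodium channel partners, -0.11 over the calcium channel partners, 0.05 over the HCN partners and -0.13 over the sodium leak channel complex.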

How the data were processed

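Values came from the table deposited by the authors, which per the file headers gives FPKM and estimated counts for each library. The submitters' processing notes name cutadapt 1.9, HISAT2, StringTie and the mm10 build; their roles, the annotation release and the counting tool are not given in the sources used here. The authors' estimated counts hold no decimals, and 42.6% of those between 1 and 12 are 4, 8 or 12, so about 4 counts appear to stand for 1 fragment. The authors' FPKM followed the counts divided by a fixed length per gene, within 1% in 31 of 31 members with at least 400 counts in every library; for 27 of these that length was proportional, with a common factor of 1.14 and within 1%, to the merged exons of all GENCODE M21 transcripts, so genes with long, little-used exons read lower. An FPKM of 1e-04 nearly always goes with a count of 0 and was read as 0. All 43 member IDs were found in GENCODE M21, 38 at the same position, and 0 sample columns were left unused.

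The counts were compared with edgeR 4.0.16 in R 4.3.3 (TMM, quasi-likelihood F test, two-sided, group only) over 16316 genes, with a threshold of 0.05 after Benjamini-Hochberg adjustment and a common biological coefficient of variation of 20.9%. SEs were taken as the absolute log2 change divided by the root of F, and intervals use the fit's degrees of freedom. Alternatives were no filter, a mean of at least 2 FPKM, DESeq2 size factors, DESeq2 1.42.0, limma 3.58.1 on log2(FPKM + 1) or log2(FPKM + 0.1), a replicate block, leaving out each library and, added after seeing the data, counts divided by 4. Groups and replicate numbers are from the sample titles, and titles do not say that a shared number links mice. Members, lists and the rule for named genes (the highest gene of each subfamily, called partner genes and the nearest gene of each partner list) were chosen with earlier results of these data known; members given per library beyond that rule, and the striatal list, were picked after their values were seen. Values of some members enter the fits, counts and sums but are not reported here.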

Additional observations from a re-analysis of the deposited data

Results flagged for a closer look

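A library that stood apart from the other 4 of its group was found in 8 of 70 groups (35 genes in TBI and in Sham) by Dixon's test. The critical value was 0.71, with a nominal rate of about 1 in 20. The share over all tested genes is not given, and the 35 genes share the same libraries, so the 8 are not read as an excess. Among TBI libraries, replicate 3 was at 18.5 FPKM in Scn2a against 7.98 to 9.21 FPKM in the others, and at 20.7 FPKM in Cacnb4 against 3.28 to 4.35 FPKM. TBI replicate 2 was at 16.1 FPKM in Cacna2d1 against 4.24 to 7.29 FPKM, and at 8.90 FPKM in Cacna2d3 against 11.4 to 12.3 FPKM. Among Sham libraries, replicate 4 was at 0.340 FPKM in Scn3a against 3.14 to 3.57 FPKM, and at 0.575 FPKM in Hcn4 against 1.25 to 1.52 FPKM. Sham replicate 5 was at 1.81 FPKM in Cacna1e against 8.29 to 9.96 FPKM, and Sham replicate 3 at 24.0 FPKM in Cacng3 against 46.9 to 55.1 FPKM.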

How the results depend on the processing

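The count of 0 called members held under all 7 other settings chosen at the outset that kept the 10 libraries and with counts divided by 4, where the smallest adjusted p of a tested member was 0.158, in DESeq2. With 1 library left out, called members ranged from 0 to 1, called pore-forming members from 0 to 1, and the 1 was Scn2a without TBI replicate 3. Of 35 tested members, 23 kept the sign of their estimate in every alternative and 12 did not in at least 1; the largest estimate among the 12 was 0.48, that of Cacna2d1. Estimates below 0 numbered 23 without Sham replicate 5 and 31 without Sham replicate 4, against 28 with all libraries. All called genes numbered 659, but 386 where genes had to average 2 FPKM or more, 1066 in DESeq2, 402 with the replicate block and 482 to 722 with 1 library left out. Called partner genes numbered 2, but 1 with no filter, with that 2 FPKM minimum, with DESeq2 size factors, in limma with either pseudocount and with counts divided by 4, 4 in DESeq2, 0 with the replicate block and 0 to 3 with 1 library left out. With the replicate block 0 members were called. Deviations of same-numbered TBI and Sham libraries correlated at -0.10 to 0.12 over genes. Such values cannot settle whether a shared replicate number links mice. A tested member's value in 1 library rested on 9.75 to 9337 fragments, so counting error is largest for the lowest members.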
